A study of Homo sapiens and Canis lupus familiaris with 27 samples.

Results

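The genes of the mitotic entry switch were the 10 genes CDK1, CCNA2, CCNB1, CCNB2, CDC25B, CDC25C, WEE1, PKMYT1, PLK1 and FOXM1. Their rows were taken from the count tables by gene symbol, and the genes were chosen with earlier results of these data known. They make up 10 of the 23708 genes listed for the human cell lines and 10 of the 16028 genes listed for CT1258. All 10 passed the filter on low counts in each of the 3 cell lines.

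Entry into mitosis is driven by the kinase CDK1, which is active when it is bound to cyclin A or cyclin B and when its inhibitory phosphates have been removed. The kinases WEE1 and MYT1 (gene PKMYT1) add these phosphates and the CDC25 phosphatases take them off, and active CDK1 in turn activates CDC25 and turns off WEE1, so that the switch flips abruptly. The kinase PLK1 pushes this loop forward, and the transcription factor FOXM1 drives many of the genes expressed in G2 phase and mitosis. The mRNAs of CCNB1, PLK1 and their relatives are low in G1 phase and peak in G2 phase and mitosis.

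RNA was sequenced from 2 human lines of prostate carcinoma, PC-3, derived from a bone marrow metastasis, and LNCaP, an androgen-responsive line, and from CT1258, a prostate carcinoma line of a dog. Cells were exposed to the indolylmaleimide PDA-66 at 15 µM for 12 h or 24 h, and the controls received the vehicle DMSO at 0.15% for 24 h. No 12 h control is among the labels. The 12 h and the 24 h results of a line therefore rest on shared DMSO libraries and are not independent. In each 12 h result, cultures with PDA-66 for 12 h are set against 24 h controls. PDA-66 and time in culture cannot be told apart there. Each group had 3 libraries with counts, apart from the PC-3 DMSO group with 2. Each cell line is a single established line, so that the libraries are replicate cultures and not tumors of different patients or dogs. RNA was measured in bulk. A changed share of cells in G2 phase or mitosis and a changed level of these mRNAs per cell cannot be told apart.

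The PC-3 libraries held 14650839 to 18091755 counts, the LNCaP libraries 11923105 to 14741883 and the CT1258 libraries 7203534 to 20976950. In CT1258, the median control had 2.676 times the total of the median PDA-66 library, and depth goes with treatment there. When the control counts were thinned to the depth of the PDA-66 libraries, the same number of mitotic entry genes was called as without thinning, 7 after 12 h and 7 after 24 h. Between 24 h and 12 h in CT1258, 3 genes were called with thinning and 2 without. The shares of all genes called with thinned controls are not given, so that these counts cannot be read against such shares. Thinning evens out the read number only, and other differences between controls and PDA-66 libraries in handling were not tested. LNCaP had the widest spread, with a common biological coefficient of variation of 0.24, compared to 0.0971 in PC-3 and 0.1 in CT1258. LNCaP PDA-66 12 h replicate 2 stood apart from the other replicates of its group, and the log2 fold changes of LNCaP without it follow the account of its libraries. Among luminal prostate markers, LNCaP expressed KLK2 (255 to 389 CPM in the controls), TMPRSS2 and CDH1, whereas PC-3 had 0 CPM of KLK2 and KLK3, with KRT8 and KRT18 present. In CT1258, TMPRSS2 and EPCAM were at 0 CPM in the controls, and KLK2 was between 3.33 and 10.8 CPM in the controls and at 0 CPM in all PDA-66 libraries. The canine line is therefore called by its label only, and the part of this change in the results below was not tested.

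The MuvB complexes and the factor NF-Y act on many G2/M genes through short sequence elements in their promoters, and the promoters of the mitotic entry genes are shown for this reason. NF-Y binds the CCAAT box, and MuvB binds the cell cycle homology region (CHR). In windows of 300 bases around the RefSeq start sites (GRCh38.p14), the letters TTTGAA or TTCGAA for the CHR and CCAAT for the CCAAT box were searched on both strands. Promoters were found for 7 of the 10 genes, not for WEE1, PKMYT1 and FOXM1. Genes with several start sites had several windows, some of which overlap, 14 in all for the 7 genes. Of these 14 windows, 7 held a CHR match, where 16.4% of all 35116 promoters hold one. A CCAAT match was present in 10 of the 14 windows, compared to 34.6% of all promoters, and both matches in 7, compared to 6.38%. By gene, both matches stood in the same window for CDK1, CCNB2, CDC25B, CDC25C and PLK1, and CCNA2 and CCNB1 had CCAAT matches only. Other letters for the CHR were not searched, so that a CHR of another form would be missed in these promoters. The 150 bases before the start site are given for CCNB1, CCNB2, PLK1 and CCNA2, with the CHR and CCAAT letters (ATTGG on the opposite strand) in capitals, 5′ to 3′ in the direction of the gene.
CCNB1 (chr5:69167000-69167149, plus strand): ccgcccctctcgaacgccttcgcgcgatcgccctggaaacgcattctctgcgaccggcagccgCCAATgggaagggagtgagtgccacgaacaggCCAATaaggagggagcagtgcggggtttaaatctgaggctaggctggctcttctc
CCNB2 (chr15:59104996-59105145, plus strand): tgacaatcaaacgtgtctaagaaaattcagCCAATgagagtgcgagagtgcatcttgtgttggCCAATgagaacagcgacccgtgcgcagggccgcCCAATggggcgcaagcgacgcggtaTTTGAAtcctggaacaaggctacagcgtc
PLK1 (chr16:23678739-23678888, plus strand): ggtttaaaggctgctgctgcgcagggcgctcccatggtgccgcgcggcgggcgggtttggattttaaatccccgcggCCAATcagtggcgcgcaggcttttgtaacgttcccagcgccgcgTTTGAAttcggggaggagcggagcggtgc
CCNA2 (chr4:121823884-121824033, minus strand): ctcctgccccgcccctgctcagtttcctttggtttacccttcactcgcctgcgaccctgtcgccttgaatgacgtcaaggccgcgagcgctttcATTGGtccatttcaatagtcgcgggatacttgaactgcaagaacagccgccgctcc
CDK1 had several CHR matches, and 30 bases are given around the one that follows a CCAAT match most closely in its second window. For CDC25C, 30 bases are given around the match in its first window.
CDK1 (chr10:60778398-60778427, plus strand): tgATTGGctgcTTTGAAagtctacgggcta
CDC25C (chr5:138331819-138331848, minus strand): gggctggcggaaggTTTGAAtggtcaacgc
In CCNB2 and PLK1, the CHR match began 29 bases before the start site, and the nearest CCAAT match began 54 and 73 bases before it. CCNB1 had 2 CCAAT matches, at 87 and 55 bases before the start site, and its window did not hold the letters searched for the CHR. CCNA2 had 1 CCAAT match, at 56 bases before the start site, and did not hold the letters searched for the CHR either. A match is a description of the letters only, and binding was not measured.

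In the DMSO controls, the levels of the human lines were compared per length, as CPM per kilobase of the canonical transcript. CDK1 was the highest of the 10 genes in PC-3 (118 ± 14.3, SD, n = 2), followed by CDC25B (66.5 ± 5.42), CCNB1 (51.8 ± 16.0) and CCNB2 (30.7 ± 5.76). The order went on with PLK1 (29.6 ± 7.26), FOXM1 (21.0 ± 1.30), CCNA2 (17.3 ± 1.84), PKMYT1 (9.68 ± 0.206), WEE1 (9.22 ± 0.830) and CDC25C (6.20 ± 1.65). The ranges of CDC25B and CCNB1, of CCNB2 and PLK1 and of PKMYT1 and WEE1 overlapped, and the other neighbours in this order did not. In LNCaP, CCNB1 (63.8 ± 40.8, SD, n = 3) and CDK1 (60.8 ± 25.9) led, and CDC25C was lowest again (5.72 ± 1.39). There, all neighbours in the order overlapped except PKMYT1 (10.5 ± 2.07) and CDC25C.

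The first question was which of these genes changed with PDA-66 in each cell line. In PC-3, 3 of the 10 genes rose and 0 fell after 12 h, namely CCNA2, PKMYT1 and FOXM1, where 13.0% of all genes tested rose and 14.6% fell. After 24 h, the same 3 genes rose and 0 fell, with 8.88% and 10.5% of all genes. At an adjusted p-value under 0.05, 5 genes were higher in PC-3 after 12 h (28.3% of all genes) and 1 was lower (28.7%), WEE1. The PC-3 PDA-66 libraries lay above both controls for 6 genes (35.5% of all genes) and below both for WEE1 (35.4%) after 12 h, and above both for 3 genes (30.6%) and below both for 0 (31.3%) after 24 h. In CT1258, 6 genes rose after 12 h (CDK1, CCNA2, CCNB1, CCNB2, CDC25C and FOXM1) and CDC25B fell, compared to 22.2% and 22.1% of all genes. After 24 h, 7 genes rose in CT1258, the 6 genes and PLK1, and 0 fell, compared to 16.6% and 17.2%. All CT1258 PDA-66 libraries lay above all controls for 8 genes (36.1% of all genes) and below them for CDC25B (36.6%) after 12 h, and after 24 h above them for 7 genes (33.1%) and below them for CDC25B and PKMYT1 (33.2%). A gene was called with an adjusted p-value under 0.001 from edgeR's quasi-likelihood test. By this threshold, 0 of the 10 genes were called in LNCaP at either time, where 0.0076% of all genes were called after 12 h and 0.0% after 24 h. At an adjusted p-value under 0.05, 7 of the 10 genes were higher in LNCaP after 12 h (4.52% of all genes) and 3 after 24 h (1.35%). Without LNCaP PDA-66 12 h replicate 2, the counts at this looser threshold were 9 (14.1% of all genes) and 9 (13.5%), all but WEE1. Without LNCaP DMSO replicate 1 they were 9 (5.57%) and 8 (2.98%). They fell to 2 (1.12%) and 0 (0.0376%) without DMSO replicate 2, and to 4 (0.933%) and 0 (0.0602%) without DMSO replicate 3. Without PDA-66 12 h replicate 1 or 3 they were 6 and 2 (7.37% and 1.23%) or 6 and 1 (2.67% and 0.501%). Without any single PDA-66 24 h library they were 6 (2.05% to 2.25%) and 0 (at most 0.00748%). With all libraries, at an unadjusted p-value under 0.05 it was 9 and 9 (15.7% and 8.6% of all genes). The other tests called more: 7 and 2 genes with the DESeq2 Wald test, 6 and 2 with edgeR's likelihood ratio test and 9 and 9 with limma voom with sample quality weights. The shares of all genes called by these tests are not given, so that their counts cannot be read against such shares. The median log2 fold change of the 10 genes was 0.46 and 0.46 in PC-3 (12 h and 24 h), 1.49 and 1.09 in LNCaP and 0.78 and 1.37 in CT1258, where the median of all genes lay between -0.01 and 0.03. No test was applied to these medians.

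**Figure D1:**
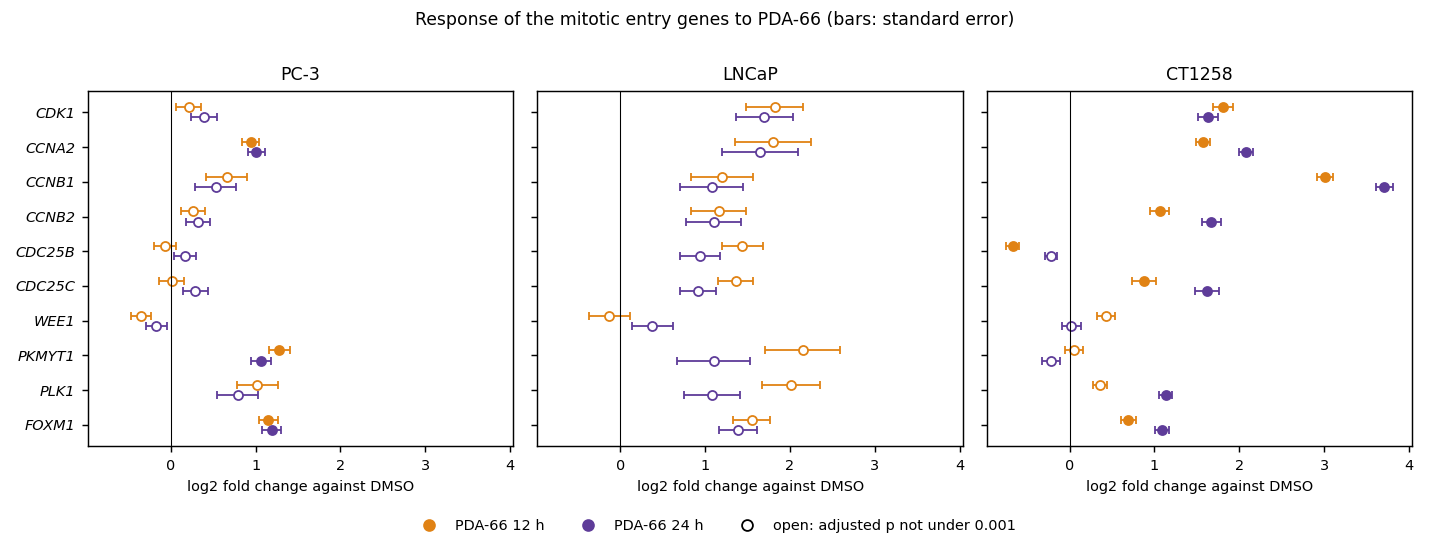
Log2 fold change against the DMSO control (x axis) of the 10 mitotic entry genes (y axis) in PC-3, LNCaP and CT1258. PDA-66 was given for 12 h (orange) or 24 h (purple). Bars are standard errors derived from edgeR's F statistic, and filled points have an adjusted p-value under 0.001. CCNB1 of CT1258 lies farthest to the right, at 3.01 and 3.71, and the LNCaP points are open although most lie above 1, with wider error bars than in CT1258.

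Libraries of LNCaP were followed gene by gene because of their spread. DMSO replicate 3 was the lowest of its group for 10 of the 10 genes and DMSO replicate 1 the highest for 7. Relative to the mean of the 3 controls, the median of the 10 genes was 0.50, 0.12 and -0.54 (log2) in DMSO replicates 1, 2 and 3. It was between 1.48 and 1.52 in the 12 h libraries and between 1.14 and 1.25 in the 24 h libraries, so that each PDA-66 library lay above each control in this median. By gene, the PDA-66 libraries lay above all controls for 9 of the 10 genes after 12 h (13.5% of all genes) and for 10 after 24 h (23.1%). LNCaP PDA-66 12 h replicate 2 was the highest of its group for CDC25B, CDC25C, PKMYT1 and PLK1 and the lowest for CDK1, the 3 cyclins, WEE1 and FOXM1. Without this library, PKMYT1 (log2 fold change 1.34, adjusted p = 0.00069) and FOXM1 (1.58, adjusted p = 0.000883) passed the threshold after 12 h, and the median of the 10 genes was 1.35. The other genes then had log2 fold changes of 2.03 (CDK1), 2.00 (CCNA2), 1.60 (PLK1), 1.35 (CCNB2), 1.30 (CCNB1), 1.29 (CDC25C), 1.19 (CDC25B) and 0.07 (WEE1). After 24 h, the adjusted p-values of the 10 genes without this library were 0.0977 for WEE1 and between 0.00135 and 0.0348 for the others. Without DMSO replicate 3, the medians were 1.33 after 12 h and 0.82 after 24 h, and without DMSO replicate 1 they were 1.84 and 1.44, with 0 genes called in each of these fits.

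**Figure D2:**
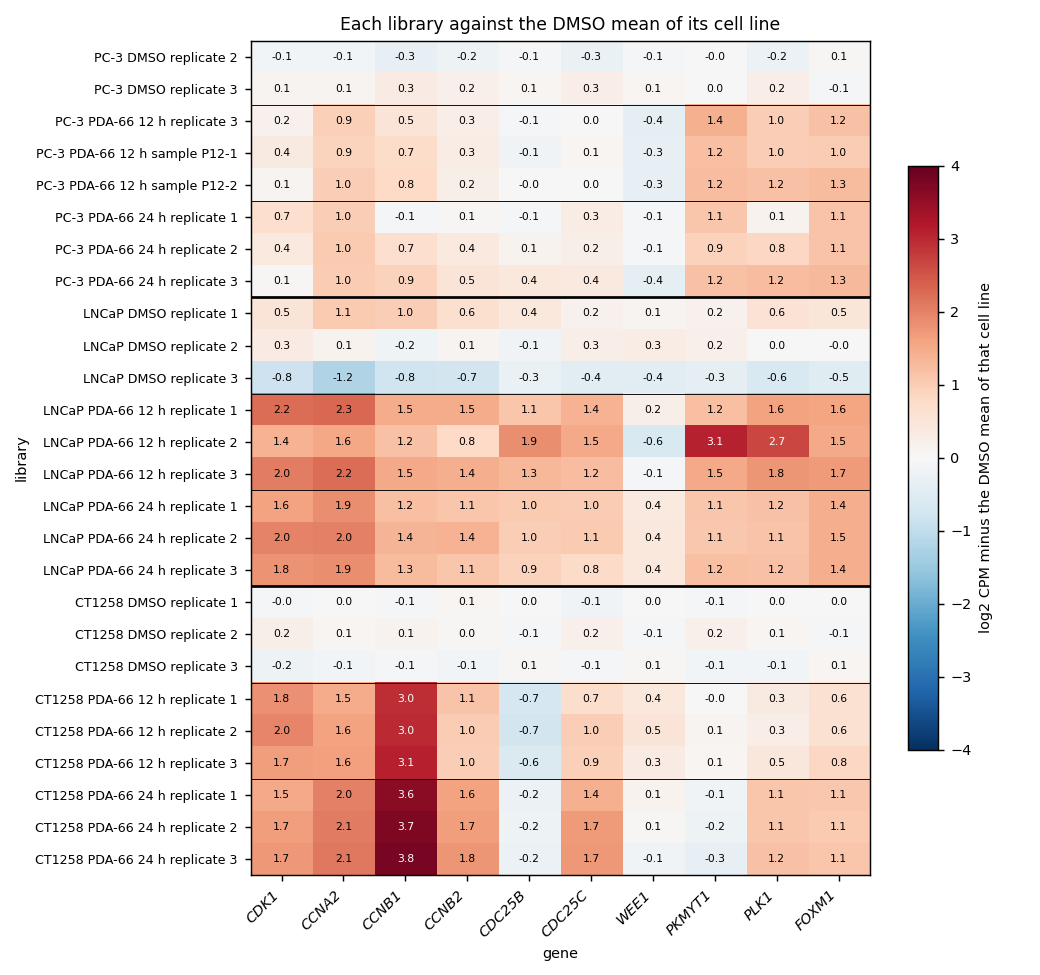
Log2 CPM of each gene (columns) in each of the 26 libraries (rows) minus the mean log2 CPM of the DMSO libraries of the same cell line; red is above and blue below that mean. LNCaP DMSO replicate 3 is blue for all 10 genes, LNCaP PDA-66 12 h replicate 2 is darkest at PKMYT1 and PLK1, and the CCNB1 column is darkest in the CT1258 PDA-66 libraries.

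CDK1 (ENSG00000170312, chromosome 10, 62538089 to 62554610, plus strand, 8 exons, GRCh37 as for all gene positions) encodes the kinase at the center of the switch. It rose in CT1258, 3.51-fold after 12 h and 3.1-fold after 24 h, and changed least in PC-3. In CT1258, CDK1 was at 37.4, 45.5 and 33.3 CPM in the controls, at 137, 149 and 121 CPM after 12 h and at 111, 121 and 128 CPM after 24 h. LNCaP had 152, 133 and 59.4 CPM in the controls, 499, 280 and 437 CPM after 12 h and 327, 422 and 371 CPM after 24 h. In both lines, the PDA-66 libraries lay above all controls. PC-3 had 204 and 242 CPM in the controls, 250, 286 and 242 CPM after 12 h and 354, 292 and 231 CPM after 24 h, with overlap between the groups. The log2 fold changes of CDK1 were 1.81 (standard error 0.12, adjusted p = 2.58e-08) and 1.63 (0.12, adjusted p = 9.86e-08) in CT1258, 1.82 (0.34, adjusted p = 0.015) and 1.70 (0.34, adjusted p = 0.0361) in LNCaP and 0.21 (0.15, adjusted p = 0.249) and 0.39 (0.15, adjusted p = 0.0512) in PC-3.

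CCNB1 (ENSG00000134057, chromosome 5, 68462962 to 68474072, plus strand, 9 exons) encodes cyclin B1, the main partner of CDK1 in mitosis. In CT1258, it had the largest fold change among the 10 genes at both times, 8.06-fold after 12 h and 13.1-fold after 24 h. The CT1258 controls were at 13.2, 15.4 and 13.2 CPM, and CCNB1 was at 107, 110 and 120 CPM after 12 h and at 170, 183 and 193 CPM after 24 h. The 3 groups of CT1258 did not overlap, and the spread within each was small compared to the distance between them. LNCaP had 223, 101 and 64.9 CPM in the controls, 316, 255 and 321 CPM after 12 h and 258, 291 and 274 CPM after 24 h. PC-3 had 82.2 and 128 CPM in the controls, 149, 172 and 177 CPM after 12 h and 97.5, 163 and 196 CPM after 24 h. LNCaP DMSO replicate 1 thus came close to the PDA-66 libraries, and PC-3 PDA-66 24 h replicate 1 lay between the controls. The log2 fold changes of CCNB1 were 3.01 (standard error 0.098, adjusted p = 4.13e-10) and 3.71 (0.0993, adjusted p = 2.87e-11) in CT1258, 1.20 (0.37, adjusted p = 0.0713) and 1.08 (0.37, adjusted p = 0.142) in LNCaP and 0.66 (0.24, adjusted p = 0.0304) and 0.53 (0.24, adjusted p = 0.0784) in PC-3. Single controls moved the values of CCNB1 in both human lines. Without LNCaP DMSO replicate 1, the LNCaP values were 1.85 (adjusted p = 0.00486) and 1.73 (adjusted p = 0.00726). In PC-3 they were 0.38 and 0.25 without DMSO replicate 2, and 1.02 and 0.90 without DMSO replicate 3. The 24 h value of PC-3 was 0.31 without PDA-66 24 h replicate 3.

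CCNA2 (ENSG00000145386, chromosome 4, 122737599 to 122745038, minus strand, 8 exons) encodes cyclin A2, which acts in S phase and G2 phase. It rose in PC-3 and in CT1258 at both times. PC-3 had 43.9 and 51.0 CPM in the controls, 91.1, 88.2 and 93.9 CPM after 12 h and 92.8, 97.5 and 96.4 CPM after 24 h. In CT1258, it was at 52.7, 55.2 and 48.1 CPM in the controls, at 145, 157 and 160 CPM after 12 h and at 211, 221 and 226 CPM after 24 h. The levels of PC-3 were alike at both times, whereas those of CT1258 were higher after 24 h in every library. LNCaP had 80.1, 42.7 and 17.1 CPM in the controls, 191, 114 and 183 CPM after 12 h and 140, 159 and 141 CPM after 24 h. The log2 fold changes of CCNA2 were 0.94 (standard error 0.10, adjusted p = 5.22e-06) and 1.01 (0.10, adjusted p = 5.7e-06) in PC-3, 1.57 (0.0836, adjusted p = 4.91e-09) and 2.08 (0.0842, adjusted p = 7.8e-10) in CT1258 and 1.80 (0.45, adjusted p = 0.0387) and 1.65 (0.45, adjusted p = 0.0811) in LNCaP. EXOSC9 overlaps 9.24% of the exon bases of CCNA2 on the opposite strand, and whether counting used the strand is not given in the sources used here.

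CCNB2 (ENSG00000157456, chromosome 15, 59397325 to 59417244, plus strand, 9 exons) encodes cyclin B2, which is found at the Golgi apparatus. It rose in CT1258, from 7.75 to 8.88 CPM in the controls to 16.7 to 18.6 CPM after 12 h and 25.5 to 28.2 CPM after 24 h. For CCNB2 in CT1258, log2 fold changes were 1.06 (standard error 0.11, adjusted p = 2.35e-06) and 1.67 (0.11, adjusted p = 4.84e-08). In LNCaP, CCNB2 was at 56.2, 38.9 and 21.7 CPM in the controls, between 62.7 and 101 CPM after 12 h and between 77.6 and 95.7 CPM after 24 h (log2 fold changes 1.16, adjusted p = 0.0519, and 1.10, adjusted p = 0.0951). PC-3 had the smallest values, 0.26 (adjusted p = 0.135) and 0.32 (adjusted p = 0.077), with 39.6 and 51.8 CPM in the controls and 47.0 to 64.2 CPM after 24 h.

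CDC25C (ENSG00000158402, chromosome 5, 137620958 to 137674044, minus strand, 14 exons) and CDC25B (ENSG00000101224, chromosome 20, 3767419 to 3786768, plus strand, 16 exons) encode the phosphatases that activate CDK1. In CT1258 they went apart, as CDC25C rose at both times and CDC25B fell after 12 h. CDC25C of CT1258 was at 6.94, 8.75 and 7.40 CPM in the controls, at 12.4, 15.2 and 14.8 CPM after 12 h and at 20.5, 24.8 and 25.6 CPM after 24 h. CDC25B of CT1258 was at 121, 116 and 125 CPM in the controls, at 76.1, 72.0 and 79.9 CPM after 12 h and at 103, 105 and 103 CPM after 24 h. The 24 h level of CDC25B thus lay between those of the controls and the 12 h libraries, with no overlap. Log2 fold changes in CT1258 were 0.88 (standard error 0.14, adjusted p = 9.31e-05) and 1.62 (0.14, adjusted p = 4.71e-07) for CDC25C, and -0.67 (0.0772, adjusted p = 4.12e-06) and -0.22 (0.0761, adjusted p = 0.0232) for CDC25B. Without CT1258 PDA-66 12 h replicate 2, the 12 h value of CDC25C was 0.82 (adjusted p = 0.00101).

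In LNCaP, both phosphatase genes lay above the controls in every PDA-66 library. CDC25B was at 85.7, 57.8 and 53.3 CPM in the controls, at 139, 235 and 160 CPM after 12 h and at 132, 125 and 121 CPM after 24 h. CDC25C was at 13.2, 14.1 and 8.65 CPM in the controls, at 30.8, 33.4 and 27.7 CPM after 12 h and at 23.6, 24.4 and 19.9 CPM after 24 h. For both genes, the 24 h libraries lay below the 12 h libraries without overlap. Their log2 fold changes in LNCaP were 1.44 (standard error 0.24, adjusted p = 0.0107) and 0.94 (0.24, adjusted p = 0.0679) for CDC25B and 1.36 (0.21, adjusted p = 0.0082) and 0.92 (0.21, adjusted p = 0.0474) for CDC25C. In PC-3, the groups overlapped, with CDC25B between 186 and 274 CPM and CDC25C between 10.5 and 16.8 CPM over all libraries. The PC-3 log2 fold changes lay between -0.07 and 0.29 for both genes and times, with adjusted p-values of 0.125 or more.

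WEE1 (ENSG00000166483, chromosome 11, 9595217 to 9615004, plus strand, 11 exons) encodes the nuclear kinase that inhibits CDK1. By edgeR's quasi-likelihood test, it was not called in any of the 3 cell lines, whereas edgeR's likelihood ratio test (adjusted p = 0.000985) and limma voom (adjusted p = 8.69e-05) called it higher in CT1258 after 12 h. PC-3 had 31.0 and 35.2 CPM in the controls, 25.7, 26.0 and 26.2 CPM after 12 h and 31.8, 31.0 and 25.7 CPM after 24 h. In LNCaP it was at 59.3, 67.1 and 40.5 CPM in the controls, at 63.7, 35.6 and 52.7 CPM after 12 h and at 70.6, 73.5 and 73.1 CPM after 24 h. CT1258 had 18.5, 17.2 and 18.7 CPM in the controls, 24.1, 26.1 and 22.7 CPM after 12 h and 19.8, 18.9 and 16.3 CPM after 24 h. After 12 h, WEE1 lay below the controls in every PC-3 library and above them in every CT1258 library. Against DMSO, WEE1 had log2 fold changes of -0.35 (standard error 0.12, adjusted p = 0.0215) and -0.17 (0.12, adjusted p = 0.258) in PC-3, -0.13 (0.24, adjusted p = 0.738) and 0.38 (0.24, adjusted p = 0.441) in LNCaP and 0.43 (0.11, adjusted p = 0.00314) and 0.02 (0.11, adjusted p = 0.896) in CT1258. The 12 h value of LNCaP changed sign when a single library was left out, to 0.07 (PDA-66 12 h replicate 2) or 0.02 (DMSO replicate 2).

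PKMYT1 (ENSG00000127564, chromosome 16, 3018025 to 3030480, minus strand, 9 exons) encodes MYT1, the membrane-bound kinase that inhibits CDK1 beside WEE1. It rose in PC-3 at both times and was not called in CT1258. PC-3 had 19.6 and 20.3 CPM in the controls, 52.9, 46.1 and 46.4 CPM after 12 h and 42.7, 37.4 and 44.4 CPM after 24 h. CT1258 had 39.3, 47.5 and 38.1 CPM in the controls, 41.2, 44.7 and 43.6 CPM after 12 h and 37.9, 36.1 and 33.0 CPM after 24 h. In PC-3 all PDA-66 libraries were above the controls, whereas in CT1258 the 12 h libraries lay within their range and the 24 h libraries just below it. LNCaP had 23.8, 24.3 and 16.7 CPM in the controls, 48.5, 179 and 60.4 CPM after 12 h and 45.5, 44.6 and 48.7 CPM after 24 h, where the value of 179 CPM belongs to the library that stood apart. PKMYT1 had log2 fold changes of 1.28 (standard error 0.12, adjusted p = 1.58e-06) and 1.06 (0.12, adjusted p = 1.44e-05) in PC-3, 2.15 (0.44, adjusted p = 0.0201) and 1.10 (0.43, adjusted p = 0.192) in LNCaP and 0.05 (0.11, adjusted p = 0.675) and -0.22 (0.11, adjusted p = 0.0873) in CT1258. Without LNCaP PDA-66 12 h replicate 2, the LNCaP values were 1.34 (adjusted p = 0.00069) and 1.10 (adjusted p = 0.00135). PAQR4 covers 16.3% of the exon bases of PKMYT1 on the opposite strand.

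PLK1 (ENSG00000166851, chromosome 16, 23688977 to 23701688, plus strand, 10 exons) encodes Polo-like kinase 1, which activates CDC25C and marks WEE1 for destruction. It rose in CT1258 after 24 h, 2.19-fold, and its smaller 12 h value there lay near the threshold. In CT1258, PLK1 was at 86.9, 90.4 and 80.1 CPM in the controls, at 109, 103 and 118 CPM after 12 h and at 186, 185 and 191 CPM after 24 h. PC-3 had 52.9 and 75.1 CPM in the controls, 124, 124 and 142 CPM after 12 h and 69.8, 113 and 148 CPM after 24 h. LNCaP had 95.4, 65.5 and 42.5 CPM in the controls, 195, 407 and 216 CPM after 12 h and 144, 141 and 145 CPM after 24 h. In 2 groups a single library was far from the others, PC-3 PDA-66 24 h replicate 1 at 69.8 CPM and LNCaP PDA-66 12 h replicate 2 at 407 CPM. PLK1 had log2 fold changes of 0.36 (standard error 0.0817, adjusted p = 0.00135) and 1.13 (0.0814, adjusted p = 9.86e-08) in CT1258, 1.02 (0.24, adjusted p = 0.0026) and 0.79 (0.24, adjusted p = 0.0149) in PC-3 and 2.01 (0.34, adjusted p = 0.0112) and 1.08 (0.33, adjusted p = 0.111) in LNCaP. In CT1258 after 12 h, PLK1 passed the threshold without DMSO replicate 2 (0.39, adjusted p = 3.98e-05), and with the DESeq2 Wald test (adjusted p = 0.000238), edgeR's likelihood ratio test (adjusted p = 0.000356) and limma voom (adjusted p = 6.88e-06). Without PC-3 PDA-66 24 h replicate 1, PLK1 passed the threshold in PC-3 at both times, with 1.02 (adjusted p = 0.000213) and 1.03 (adjusted p = 0.00062). Without LNCaP PDA-66 12 h replicate 2, its 12 h value in LNCaP was 1.60 (adjusted p = 0.00135). The exons of PLK1 overlap those of ERN2 (2.69% of its exon bases) and of a long non-coding RNA (7.22%) on the opposite strand.

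FOXM1 (ENSG00000111206, chromosome 12, 2966846 to 2986340, minus strand, 9 exons) encodes the transcription factor that raises CCNB1, CDC25B and PLK1 in G2 phase. FOXM1 rose in PC-3 and CT1258 at both times, as did CCNA2. PC-3 had 77.7 and 71.2 CPM in the controls, 168, 151 and 178 CPM after 12 h and 164, 165 and 183 CPM after 24 h. LNCaP had 85.3, 60.3 and 43.5 CPM in the controls, 181, 176 and 196 CPM after 12 h and 164, 167 and 165 CPM after 24 h. CT1258 had 57.3, 52.9 and 59.1 CPM in the controls, 86.2, 86.0 and 101 CPM after 12 h and 120, 118 and 122 CPM after 24 h. The PDA-66 libraries were above the controls in all 3 lines at both times, and the PDA-66 levels of LNCaP varied less than its controls. For FOXM1, log2 fold changes were 1.15 (standard error 0.11, adjusted p = 1.47e-06) and 1.19 (0.11, adjusted p = 2.46e-06) in PC-3, 1.55 (0.22, adjusted p = 0.00784) and 1.39 (0.22, adjusted p = 0.022) in LNCaP and 0.69 (0.0873, adjusted p = 9.55e-06) and 1.09 (0.087, adjusted p = 2.61e-07) in CT1258. ITFG2 overlaps 22.0% of the exon bases of FOXM1 on the opposite strand.

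**Figure D3:**
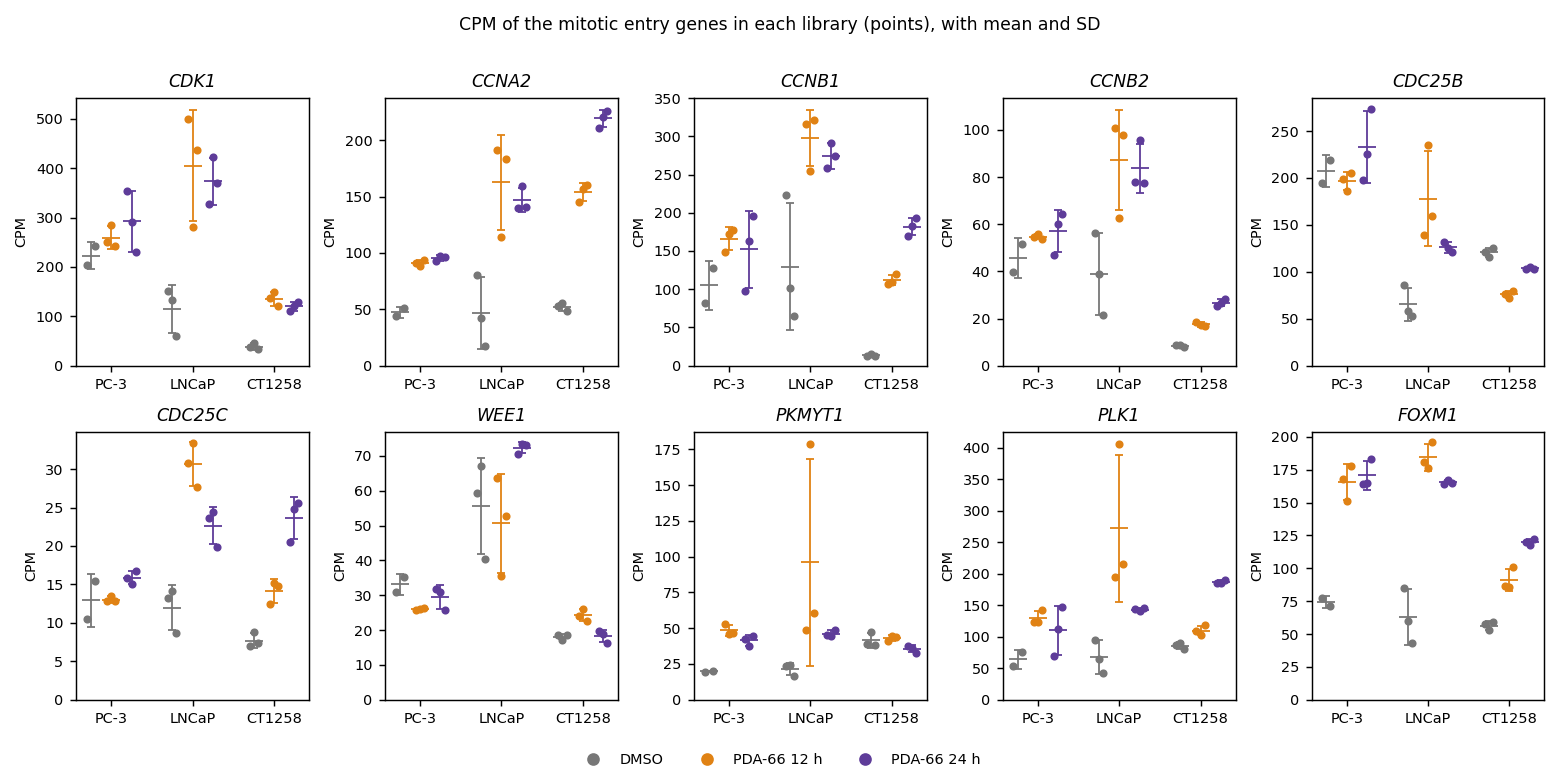
CPM (y axis, linear, from 0) of each mitotic entry gene in the libraries of PC-3, LNCaP and CT1258 (x axis) with DMSO (gray), PDA-66 for 12 h (orange) and PDA-66 for 24 h (purple). Points are libraries, the dash is the mean and the bars are the SD (n = 2 for PC-3 DMSO, otherwise 3); CCNB1 of CT1258 climbs from at most 15.4 CPM to at least 170 CPM after 24 h, while WEE1 of CT1258 stays between 16.3 and 26.1 CPM.

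To see whether the switch genes moved further between 12 h and 24 h, both PDA-66 groups were compared with each other. Without controls at both times, the part of time in culture could not be tested. In CT1258, CCNB1 (log2 fold change 0.70, standard error 0.0884, adjusted p = 0.000197) and PLK1 (0.77, 0.0822, adjusted p = 7.74e-05) were higher after 24 h than after 12 h, 2 of the 10 genes compared to 0.85% of all genes, and 0 were lower (1.28%). At an adjusted p-value under 0.05, 7 genes were higher after 24 h in CT1258 (9.08% of all genes), namely CCNA2, CCNB1, CCNB2, CDC25B, CDC25C, PLK1 and FOXM1, and WEE1 was lower (-0.41, adjusted p = 0.0259, 10.2% of all genes lower). CDK1 was among the genes that did not move further (-0.18, adjusted p = 0.309). The count at the stricter threshold depended on single libraries of CT1258. It was 0 without PDA-66 12 h replicate 1 or 2 or PDA-66 24 h replicate 3, and 1 (PLK1) without PDA-66 12 h replicate 3 or PDA-66 24 h replicate 2. It reached 7 when DMSO replicate 2 was left out, a fit whose share of all genes at this threshold is not given. The changes themselves stayed between 0.65 and 0.75 for CCNB1 and between 0.72 and 0.82 for PLK1.
In PC-3 and LNCaP, 0 of the 10 genes differed between the times with edgeR's quasi-likelihood test, where 1.41% and 0.0% of all genes were called. At an unadjusted p-value under 0.05 it was 1 gene in PC-3 (PKMYT1, -0.22) and 2 in LNCaP (PKMYT1, -1.05, and PLK1, -0.93), compared to 24.5% and 6.36% of all genes. Without PDA-66 12 h replicate 2, the LNCaP values were -0.24 (adjusted p = 0.609) and -0.52 (adjusted p = 0.454). The test of limma voom with sample quality weights called 1 gene in PC-3 (PKMYT1) and 0 in LNCaP. The DESeq2 Wald test called 0 in both lines. For limma voom and DESeq2, the shares of all genes called between the times are not given.

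The next question was whether a gene responded differently in the 3 cell lines, which was tested as the difference of the log2 fold changes in 1 fit over the genes shared by symbol. Of 60 such tests, 24 had an adjusted p-value under 0.05. CT1258 differed from both human lines for CCNB1. Its log2 fold change was larger than that of PC-3 by 2.37 (standard error 0.43, adjusted p = 0.000178) after 12 h and by 3.19 (0.43, adjusted p = 1.22e-05) after 24 h, and larger than that of LNCaP by 1.86 (0.41, adjusted p = 0.000979) and 2.65 (0.41, adjusted p = 9.5e-05). These 4 differences passed in each of the 26 fits that left out 1 library, with values from 1.95 to 2.68 and from 2.76 to 3.49 against PC-3, and from 1.10 to 2.18 and from 1.92 to 2.98 against LNCaP. The value of 1.10 is that without LNCaP DMSO replicate 1. For CDK1, PC-3 had the smaller response, with differences of 1.58 (adjusted p = 0.00341) and 1.30 (adjusted p = 0.0226) for LNCaP and of 1.61 (adjusted p = 0.00161) and 1.26 (adjusted p = 0.0153) for CT1258, 12 h and 24 h in turn. The 24 h differences of CDK1 did not pass without PC-3 DMSO replicate 3 (1.19 and 1.06) or PC-3 PDA-66 24 h replicate 3 (1.18 and 1.05), and that of LNCaP did not pass in a fit of only LNCaP and PC-3 (1.34, adjusted p = 0.0624).
The phosphatases and inhibitory kinases divided the cell lines in another way. CDC25B responded more in LNCaP than in PC-3 after 12 h (1.47, adjusted p = 0.000148), and less in CT1258 than in LNCaP at both times (-2.05, adjusted p = 9.44e-07, and -1.13, adjusted p = 0.00128). The 24 h difference of CDC25B between LNCaP and PC-3 was 0.75 (adjusted p = 0.0466) and failed in 20 of the 26 fits that left out 1 library, with values from 0.64 to 1.02. It passed in those without PC-3 PDA-66 24 h replicate 3, LNCaP DMSO replicate 1, any LNCaP PDA-66 12 h replicate or CT1258 DMSO replicate 2. For CDC25C, PC-3 responded less than LNCaP after 12 h (1.32, adjusted p = 0.000764) and less than CT1258 after 12 h (0.89, adjusted p = 0.0111, and 0.52 without PC-3 DMSO replicate 3, adjusted p = 0.189) and 24 h (1.33, adjusted p = 0.000621). The difference of CDC25C between CT1258 and LNCaP after 24 h was 0.73 (adjusted p = 0.0345) and failed in 20 of the 26 fits, with values from 0.56 to 0.91. It passed without PC-3 DMSO replicate 2 or 3, LNCaP DMSO replicate 3, LNCaP PDA-66 12 h replicate 2, CT1258 DMSO replicate 2 or CT1258 PDA-66 24 h replicate 1.
PKMYT1 responded less in CT1258 than in PC-3 (-1.21, adjusted p = 0.0311, and -1.27, adjusted p = 0.0331) and than in LNCaP (-2.03, adjusted p = 0.000342, and -1.29, adjusted p = 0.0218). Without LNCaP PDA-66 12 h replicate 2, the 12 h difference to LNCaP was -1.25 (adjusted p = 5.59e-06). The differences of PKMYT1 to PC-3 failed in 5 of the 26 fits at 12 h and in 7 at 24 h, with values from -1.39 to -1.09. At 12 h these were the fits without PC-3 DMSO replicate 2 or 3, PC-3 PDA-66 12 h replicate 3, CT1258 DMSO replicate 2 or CT1258 PDA-66 12 h replicate 1. At 24 h they were the fits without PC-3 DMSO replicate 2 or 3, PC-3 PDA-66 24 h replicate 1 or 3, CT1258 DMSO replicate 2 or CT1258 PDA-66 24 h replicate 2 or 3. The 24 h difference of PKMYT1 to LNCaP failed without LNCaP DMSO replicate 3 (-1.14), CT1258 DMSO replicate 2 (-1.18) or CT1258 PDA-66 24 h replicate 3 (-1.24), and in a fit of only CT1258 and LNCaP (-1.27, adjusted p = 0.0649). WEE1 differed between CT1258 and PC-3 after 12 h (0.79, adjusted p = 0.0278), a difference that failed in 6 of the 26 fits, with values from 0.63 to 0.91. These left out PC-3 DMSO replicate 3, any of the 3 PC-3 PDA-66 12 h libraries, or CT1258 PDA-66 12 h replicate 1 or 2.
The remaining differences were those of PLK1 (-1.59, adjusted p = 0.00128) and FOXM1 (-0.81, adjusted p = 0.00396), both smaller in CT1258 than in LNCaP after 12 h, and of CCNB2, which was larger in CT1258 than in PC-3 after 24 h (1.36, adjusted p = 0.00597, and 1.09 without PC-3 DMSO replicate 3, adjusted p = 0.0617). CCNA2 did not pass between any 2 lines with all libraries. Its 12 h difference between LNCaP and PC-3 passed without LNCaP DMSO replicate 1 (1.54, adjusted p = 0.0018) or LNCaP PDA-66 12 h replicate 2 (1.06, adjusted p = 0.0398), and with limma voom (1.69, adjusted p = 0.00025). CCNA2 also passed after 24 h between LNCaP and PC-3 and after 12 h between CT1258 and LNCaP without LNCaP DMSO replicate 1 (1.29 and -0.95), and after 24 h between CT1258 and PC-3 without LNCaP DMSO replicate 1 or 3 or LNCaP PDA-66 12 h replicate 2. Counted by pair of lines, LNCaP and PC-3 differed in 3 of the 10 genes after 12 h and in 2 after 24 h (19.6% and 9.7% of all genes shared and tested). Without LNCaP DMSO replicate 1, these counts were 8 and 5, and the shares of all genes in that fit are not given. Between CT1258 and PC-3 it was 5 and 5 genes (30.1% and 21.2%), and between CT1258 and LNCaP 5 and 4 genes (40.2% and 21.1%). These shares of all genes are high, so that a difference between lines was common outside the mitotic entry genes too.

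**Figure D4:**
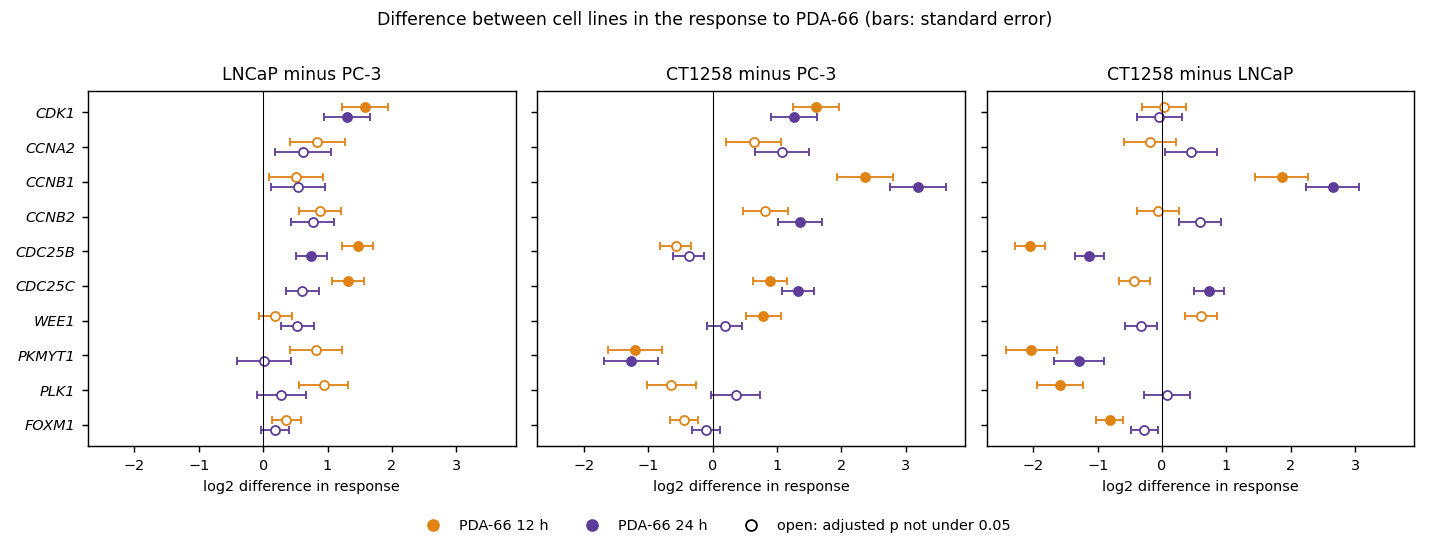
Difference in the log2 fold change against DMSO (x axis) of the 10 genes (y axis) between 2 cell lines, after 12 h (orange) and 24 h (purple). Bars are standard errors derived from the F statistic of the shared edgeR fit, and filled points have an adjusted p-value under 0.05. CCNB1 lies to the right for CT1258 against both human lines, at 2.37 and 3.19 and at 1.86 and 2.65, while CDC25B and PKMYT1 lie to the left for CT1258 against LNCaP.

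Ratios between these genes within a library do not depend on its scaling, and describe the makeup of the switch at the mRNA level. They are ratios of CPM and not of levels per length, so that only their change between libraries is read. In CT1258, CCNB1 over CDK1 was between 0.338 and 0.397 in the controls, between 0.738 and 0.988 after 12 h and between 1.51 and 1.53 after 24 h. CCNB1 over CCNB2, the 2 B-type cyclins, was between 1.49 and 1.79 in the CT1258 controls, between 5.75 and 7.18 after 12 h and between 6.66 and 6.89 after 24 h. The 2 cyclin genes thus did not move in step in CT1258, and CCNB1 passed CDK1 by its share of reads. In LNCaP, CCNB1 over CDK1 was between 0.755 and 1.47 in the controls and between 0.634 and 0.910 after 12 h, and CCNB1 over CCNB2 was between 2.59 and 3.97 and between 3.14 and 4.06, with overlap in both. In PC-3, CCNB1 over CDK1 was 0.402 and 0.528 in the controls, 0.593 to 0.734 after 12 h and 0.275 to 0.850 after 24 h. CCNB1 over CCNB2 was 2.07 and 2.47, 2.73 to 3.31 and 2.07 to 3.05 in turn. Both PC-3 ratios thus lay above the controls after 12 h and overlapped them after 24 h. The ratio of CDK1 over WEE1, kinase over inhibitor, was between 1.46 and 2.57 in the LNCaP controls, between 7.83 and 8.28 after 12 h and between 4.62 and 5.75 after 24 h. In CT1258, it ranged from 1.78 to 2.65 in the controls, from 5.35 to 5.70 after 12 h and from 5.61 to 7.88 after 24 h. The PC-3 libraries had 6.59 to 6.89, 9.20 to 11 and 8.97 to 11.1 in turn. The PDA-66 libraries were above the controls in this ratio in all 3 lines. No test was run on the ratios.

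**Figure D5:**
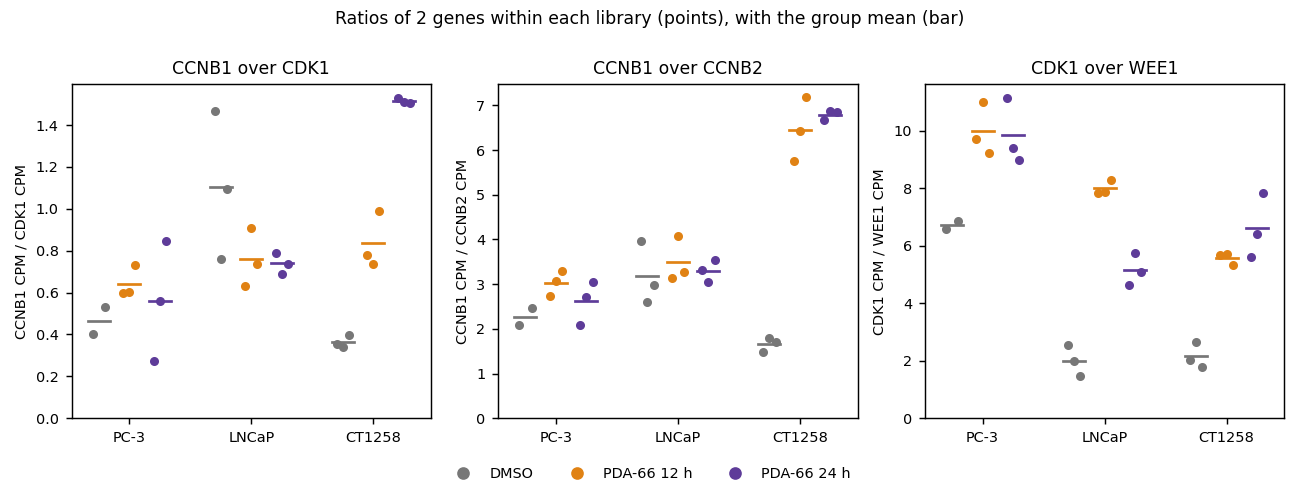
Ratios of CPM within each library (y axis, from 0; points, with a bar at the group mean) for CCNB1 over CDK1, CCNB1 over CCNB2 and CDK1 over WEE1 in PC-3, LNCaP and CT1258 (x axis), with DMSO in gray and PDA-66 in orange (12 h) and purple (24 h). CCNB1 over CDK1 climbs in CT1258 from at most 0.397 to at least 1.51, and CDK1 over WEE1 is higher with PDA-66 than with DMSO in each library of the 3 lines.

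Other genes of the pathway were taken from lists, whose counts stand against the shares of all genes tested. In CT1258, 22.2% of all genes rose and 22.1% fell after 12 h, and 16.6% rose and 17.2% fell after 24 h. The PC-3 shares were 13.0% and 14.6% after 12 h and 8.88% and 10.5% after 24 h. Of 14 further activators and cofactors of CDK1, 7 of 11 tested rose in CT1258 after 12 h and 7 after 24 h, and 0 fell. In PC-3, 3 of 13 rose and 1 fell at each time. AURKA, the kinase that activates PLK1, rose in CT1258 (log2 fold change 2.10 and 2.67), with 1.84 (adjusted p = 0.0177) and 1.56 (adjusted p = 0.0522) in LNCaP and 0.95 (adjusted p = 0.00448) and 0.65 (adjusted p = 0.0386) in PC-3. CDC25A, the phosphatase of the G1/S transition, rose in PC-3 (1.29 and 1.10) and CT1258 (1.51 and 1.02). CKS2, a small subunit of CDK complexes, rose in CT1258 (1.34 and 1.77) and had 0.01 and -0.02 in PC-3, and CCNB3, a B-type cyclin, rose in CT1258 (1.44 and 2.40). In LNCaP 0 of 13 genes of this list were called, as 0 of every other list, where at most 0.0076% of all genes were. At an adjusted p-value under 0.05, 5 and 2 of these 13 genes were higher in LNCaP, where 4.52% and 1.35% of all genes were.

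Of 12 inputs from the G2 checkpoint, which holds CDK1 inactive after DNA damage, 7 of 10 tested rose and 2 fell in CT1258 at each time. In PC-3, 4 of 12 rose and 2 fell after 12 h, and 3 rose and 0 fell after 24 h. CLSPN, the adaptor through which CHK1 is activated, rose in PC-3 (log2 fold change 1.5 and 1.35) and CT1258 (1.56 and 1.10), with 2.07 (adjusted p = 0.00518) and 1.74 (adjusted p = 0.0177) in LNCaP. CHEK1, which encodes CHK1, the kinase that restrains CDC25, rose in both lines too (PC-3 0.99 and 1.12, CT1258 1.43 and 1.07). GADD45A, a stress gene, fell in CT1258 (-1.74 and -1.06), and so did SFN (-1.35 and -0.59), which encodes a protein that holds cyclin B and CDK1 in the cytoplasm. CHEK2 was called in opposite directions, lower in PC-3 after 12 h (-0.62, adjusted p = 0.00082) and higher in CT1258 (1.04 and 0.91).

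The anaphase-promoting complex and its regulators, which destroy cyclin B, had 7 of 17 tested genes higher and 4 lower in CT1258 after 12 h (22.2% and 22.1% of all genes) and 9 higher and 3 lower after 24 h (16.6% and 17.2%). In PC-3, 1 of 20 rose and 1 fell after 12 h (13.0% and 14.6% of all genes), and 0 rose and 1 fell after 24 h (8.88% and 10.5%). FBXO5, the inhibitor EMI1 of the complex, rose in CT1258 (1.94 and 1.36), whereas FZR1, its activator CDH1 in G1 phase, fell (-1.12 and -1.30), as did the subunit ANAPC11 (-1.59 and -1.28). PTTG1, which encodes securin, a substrate of the complex, rose in CT1258 after 24 h (1.49). In PC-3, these 4 genes had log2 fold changes between -0.27 and 0.36, none of them called.

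Among the genes of MuvB, B-MYB and NF-Y, which act on promoters of G2/M genes, 8 of 14 rose and 3 fell in CT1258 after 12 h, and 7 rose and 1 fell after 24 h. In PC-3, 4 of 15 rose and 1 fell after 12 h, and 4 rose and 0 fell after 24 h. MYBL2, which encodes B-MYB, rose in PC-3 (1.45 and 1.57) and CT1258 (0.89 and 0.63), with 2.36 (adjusted p = 0.00773) and 1.58 (adjusted p = 0.0394) in LNCaP. LIN9, a MuvB subunit, rose in CT1258 (1.15 and 1.27), as did LIN52 (1.65 and 0.99) and RBBP4 (2.20 and 1.90). Of the PP2A-B55 phosphatase, which removes the phosphates that CDK1 adds, 2 of 8 genes rose and 0 fell in PC-3 at each time, and 2 of 7 and 3 of 7 rose and 1 fell in CT1258. PPP2R2C (1.21 and 1.27) and PPP2R2B (1.04 and 1.31), both B55 subunits, rose in PC-3. In CT1258, PPP2R2A rose (0.90 and 0.51), PPP2R2B rose after 24 h (1.01) and the scaffold subunit PPP2R1A fell (-0.69 and -1.05).

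The cyclins and kinases of the G1/S transition were counted as a contrast to the mitotic genes. In PC-3, 4 of 7 rose after 12 h and 2 after 24 h, and 0 fell, and in CT1258 3 of 8 rose and 3 fell after 12 h, and 1 rose and 3 fell after 24 h. CCNE1, cyclin E1, rose in PC-3 after 12 h (log2 fold change 2.41) and had 1.01 after 24 h (adjusted p = 0.00622), and in CT1258 it rose after 12 h (1.00) and had -0.01 after 24 h. CCNE2 followed with 1.70 in PC-3 and 1.66 in CT1258 after 12 h, CDK2 rose in both lines at both times (0.60 to 1.03), and CCND3 rose in PC-3 (1.19 and 0.87). General genes of proliferation and S phase moved with the switch in part, as 6 of 10 rose in PC-3 after 12 h and 7 after 24 h, with 0 lower. In CT1258, 7 rose and 0 fell after 12 h, and 3 rose and 2 fell after 24 h. In LNCaP, 9 and 5 of the 10 were higher at an adjusted p-value under 0.05 (12 h and 24 h), and 0 lower. Of the 7 G1/S genes tested there, 3 and 1 were higher and 0 lower, where 4.52% and 1.35% of all genes were higher. The median log2 fold changes in LNCaP were 1.32 and 1.11 for the proliferation genes and 0.90 and 0.62 for the G1/S genes. Those of the mitotic entry genes were 1.49 and 1.09. MKI67, which marks cycling cells, rose in PC-3 (1.20 and 1.06) and CT1258 (1.43 and 1.86), TOP2A rose in CT1258 (1.90 and 1.36) with 0.05 and 0.25 in PC-3, and RRM2 rose in both (1.58 and 1.56, 0.76 and 0.44). MCM4 rose in PC-3 (1.07 and 1.12) and in CT1258 after 12 h (0.55). After 24 h, the helicase genes MCM2 (0.72) and MCM5 (0.77) rose in PC-3, while both fell in CT1258 (-0.53 and -0.66). How much of the change in the 10 genes goes with the share of cycling cells was not tested.
Among 8 markers of other cell types, PECAM1 fell in PC-3 after 12 h (-1.72), from 12.8 to 18.5 CPM in its controls, and it was the only marker of that list called at either time in any line.

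For CDK1, CCNB1 and WEE1, the genes most alike over all 26 libraries were searched among 8265 genes, by Pearson's r of log2 CPM after the mean of each cell line was removed. Nearest to CDK1 were NDC80 (r = 0.972), NUSAP1 (0.97), SGOL2 (0.964), MND1 (0.963) and NEK2 (0.959). For CCNB1 these were HMMR (0.969), AURKA (0.959), ECT2 (0.945), MRPL15 (0.938) and PRC1 (0.936). WEE1 had lower values, led by HMGXB4 (0.834), RFC1 (0.822), GLCCI1 (0.815), CASP2 (0.808) and PTK2 (0.807). These values describe the 26 libraries, which share controls and differ in depth, and no p-value is given for them.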

How the data were processed

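RNA of 26 of the 27 labelled samples was analysed, and PC-3 DMSO replicate 1 was not analysed here. According to the labels and methods, polyA-selected libraries were sequenced with single reads of 75 bp. The authors aligned human reads to hg19 with STAR 2.3.1s and canine reads to CanFam3.1 with BWA, and the authors deposited raw read counts per gene. The strand and the handling of reads with several matches are not given in the sources used here.

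From these counts, library sizes were scaled by TMM, low genes were removed by filterByExpr, and each cell line was fitted with edgeR 4.0.16 (quasi-likelihood test, Benjamini-Hochberg adjustment over all genes tested, threshold 0.001). CPM were computed by the cpm function of edgeR with the TMM-scaled library sizes. Standard errors were derived as the size of the log2 value over the square root of the F statistic of the quasi-likelihood test. Responses of the lines were compared in 1 fit over 11736 genes shared by symbol, with a threshold of 0.05. The fits were tested on simulated data. Alternatives were DESeq2 1.42.0, limma 3.58.1 (voom), other scalings, filters and thresholds, a replicate block, thinned controls and fits without single libraries. The fit of only the 2 cell lines compared was added after the data had been seen. From each pathway list, up to 4 called genes with the largest log2 fold change in size against DMSO in any cell line were named, and any gene called in opposite directions in 2 cell lines. Some luminal marker responses are not reported here. The members and lists were chosen with earlier results of these data known. The p-values measure the spread between cultures of 1 line.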

Additional observations from a re-analysis of the deposited data

Results flagged for a closer look

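The responses of the mitotic entry genes differed between cell lines in 24 of the 60 tests of the difference itself, at an adjusted p-value under 0.05 in the shared edgeR fit. Over all genes shared and tested, 9.7% to 40.2% differed between 2 lines in the same tests. Values are differences of log2 fold changes against DMSO.

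CCNB1, the gene of cyclin B1, had the largest of these differences. Its response was larger in CT1258 than in PC-3 by 2.37 (12 h) and 3.19 (24 h), and larger than in LNCaP by 1.86 and 2.65. CCNB2 was larger in CT1258 than in PC-3 by 1.36 after 24 h, which failed in 1 of the 26 fits that left out 1 library.

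CDK1 responded more in LNCaP than in PC-3, by 1.58 after 12 h and 1.30 after 24 h, and more in CT1258 than in PC-3, by 1.61 and 1.26. Each 24 h value of CDK1 failed in 2 of the 26 fits that left out 1 library. Among the phosphatases, CDC25B responded more in LNCaP than in PC-3, by 1.47 and 0.75, and the difference of CT1258 minus LNCaP was -2.05 and -1.13. The value of 0.75 failed in 20 of the 26 fits. CDC25C was larger in LNCaP than in PC-3 by 1.32 after 12 h, larger in CT1258 than in PC-3 by 0.89 and 1.33, and larger in CT1258 than in LNCaP by 0.73 after 24 h. The value of 0.73 failed in 20 of the 26 fits too, and that of 0.89 in 1.

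For the inhibitory kinase gene PKMYT1, the difference of CT1258 minus PC-3 was -1.21 after 12 h and -1.27 after 24 h, and that of CT1258 minus LNCaP was -2.03 and -1.29. Of the 26 fits that left out 1 library, the differences to PC-3 failed in 5 and 7, and the 24 h difference to LNCaP in 3. Without LNCaP PDA-66 12 h replicate 2, in which PKMYT1 reached 179 CPM, the 12 h difference of PKMYT1 to LNCaP was -1.25 and still passed the threshold. WEE1 differed by 0.79 between CT1258 and PC-3 after 12 h, which failed in 6 of the 26 fits. After 12 h, CT1258 minus LNCaP was -1.59 for PLK1 and -0.81 for FOXM1. Without LNCaP PDA-66 12 h replicate 2, the difference of PLK1 was -1.20, also past the threshold. Species, cell line, alignment and gene models go together in each comparison with CT1258 and cannot be told apart.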

How the results depend on the processing

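Of 2020 values for single genes under other settings, 1826 kept their direction and their side of the threshold, 113 no longer passed it, 69 newly passed it and 12 changed sign. These values cover all 10 genes against DMSO. For 24 h against 12 h and between lines, they cover only genes called in the main fit. Genes that newly passed in those comparisons are therefore not counted here, and some settings changed the threshold itself. The 12 that changed sign belong to values that were not called. CDC25B in PC-3 after 12 h was 0.02 without PC-3 DMSO replicate 3 (range without single libraries -0.15 to 0.02). CDC25C in PC-3 after 12 h was -0.16 with the replicate block and between -0.23 and 0.32 without single libraries, among them -0.02 without PC-3 PDA-66 12 h sample P12-1. WEE1 in LNCaP after 12 h was 0.10 with limma voom and between -0.33 and 0.07 without single libraries, 0.02 without DMSO replicate 2. WEE1 in CT1258 after 24 h was -0.05 with limma voom and between -0.04 and 0.09 without single libraries, among them -0.03 and -0.00. PKMYT1 in CT1258 after 12 h was between -0.01 and 0.15.

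The counts of called genes moved as follows, and the causes were not tested. Shares of all genes called are not given for the other tests, the replicate block or the fits without single libraries in this section. At an adjusted p-value under 0.05, the count was 6 in PC-3 after 12 h, 7 and 3 in LNCaP after 12 h and 24 h, and 8 for CT1258 24 h against 12 h. With an added log2 fold change of at least 1 in size, it was 4 in CT1258 after 12 h and 0 for CT1258 24 h against 12 h. In LNCaP, DESeq2's Wald test called 7 (12 h) and 2 (24 h), the likelihood ratio test 6 and 2, and limma voom 9 and 9. For CT1258 24 h against 12 h, these tests called 6, 6 and 8, and a fit of only the 2 groups compared called 7. For PC-3 24 h against 12 h, limma voom called 1.

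Between LNCaP and PC-3, limma voom called 7 (12 h) and 6 (24 h), and at 24 h DESeq2 size factors 1, library size only 1, only the 2 cell lines compared 0 and an adjusted p-value under 0.001 gave 0. Between CT1258 and PC-3, limma voom called 9 and only the 2 cell lines compared 9 after 12 h, and an adjusted p-value under 0.001 gave 1 and 2. Between CT1258 and LNCaP, this threshold gave 3 and 1.

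Without single libraries, the counts ranged from 3 to 4 in PC-3 at both times and from 0 to 0 between them. They ranged from 0 to 2 (12 h), from 0 to 0 (24 h) and from 0 to 0 (24 h against 12 h) in LNCaP, and from 6 to 8, from 7 to 7 and from 0 to 7 in CT1258. Between lines, they ranged from 3 to 8 and from 0 to 5 (LNCaP and PC-3), from 2 to 8 and from 2 to 6 (CT1258 and PC-3), and from 5 to 6 and from 2 to 5 (CT1258 and LNCaP).

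The counts could not show whether equal replicate numbers were paired cultures, because deviations were taken from the means of very small groups. PC-3 PDA-66 12 h libraries without a replicate number did not enter the correlations or the replicate block. With the block, the PC-3 PDA-66 12 h group therefore held replicate 3 alone, and no counts are given for comparisons with that group. Deviations of same-numbered samples correlated at -0.149 to 0.147 in PC-3, -0.477 to 0.262 in LNCaP and -0.253 to 0.186 in CT1258. CCNA2 was 0.91 in PC-3 after 12 h with the replicate block. The count with the block was 5 in PC-3 after 24 h, 0 in LNCaP, and 7, 7 and 2 in CT1258. Between lines, the block gave 0 (LNCaP and PC-3) and 3 (CT1258 and PC-3) after 24 h, and 5 and 3 (CT1258 and LNCaP) after 12 h and 24 h. After 24 h, the difference of CDK1 to PC-3 passed with the block for CT1258 (1.45) and did not pass for LNCaP.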
